A study of Mus musculus with 2 samples.

Results

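The gasdermins are a family of pore-forming proteins, and their mouse genes fall into a C cluster on chromosome 15 and single genes or small clusters elsewhere. They were followed here in the small intestine of mice that carry an interleukin 9 transgene (IL-9Tg) and of wild-type mice (WT). Both kinds of mice were on the BALB/c background, were 6 to 8 weeks old and received no treatment. RNA from 1 pool of 3 mice of each kind was hybridised to 1 Affymetrix mouse expression array, in a study of hypersensitivity to oral antigen, mast cells and the permeability of the intestine. The promoter that drives the transgene, the number of transgenic lines and the sampled segment of the small intestine are not given in the labels or the design text.

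Members were all probe sets whose annotated symbol held Gsdmc, Gsdmc2, Gsdmc3, Gsdmc4, Gsdmcl-ps, Gsdmcl2, Gsdma, Gsdmd or Gsdme, alone or shared with a paralog. A probe set is a group of short probes that target one transcript. These 9 genes, of 19324 gene symbols named on the array, gave 13 of 45101 probe sets, 8 for the C cluster and 5 for the other gasdermins. They name 8 of the 9 genes, since no probe set carried the symbol Gsdmc3. The genes were selected on earlier results of these same arrays, in which the intensities of Gsdmc2 differed widely between the pools, so all values below are descriptions. With 1 array for each pool the spread between mice is unknown, no difference has a replicate check and no p-value is given.

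A gasdermin consists of a pore-forming amino-terminal domain that is held inactive by its carboxy-terminal domain. When a protease cuts the linker between them, the freed amino-terminal domains assemble into pores in the plasma membrane, through which small cytokines leave and by which the cell may lyse (pyroptosis). In the mouse intestine, the Gsdmc genes are known as epithelial genes that interleukin 4 and interleukin 13 induce during worm infection. Gsdmd is the substrate of the inflammatory caspases, Gsdme is cut by caspase 3, and Gsdma is known from skin and the upper digestive tract.

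Of the C cluster, 1 promoter is shown because Gsdmc3, the gene without a probe set, was the one C gene matched in the RefSeq promoter table (GRCm38.p6, 250 bases before to 50 after the gene start). The promoter of Gsdme, from outside the cluster, is set beside it. These were the 2 of 9 members matched. Capitals mark the letters TATAA.
Gsdmc3, chr15:63878509-63878808, minus strand: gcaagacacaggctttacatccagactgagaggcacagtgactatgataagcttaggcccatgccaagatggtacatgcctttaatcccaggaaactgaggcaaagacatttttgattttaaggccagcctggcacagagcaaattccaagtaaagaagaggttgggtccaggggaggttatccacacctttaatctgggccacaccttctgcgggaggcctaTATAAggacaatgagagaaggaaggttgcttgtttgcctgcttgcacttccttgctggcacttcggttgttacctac
Gsdme, chr6:50261720-50262019, minus strand: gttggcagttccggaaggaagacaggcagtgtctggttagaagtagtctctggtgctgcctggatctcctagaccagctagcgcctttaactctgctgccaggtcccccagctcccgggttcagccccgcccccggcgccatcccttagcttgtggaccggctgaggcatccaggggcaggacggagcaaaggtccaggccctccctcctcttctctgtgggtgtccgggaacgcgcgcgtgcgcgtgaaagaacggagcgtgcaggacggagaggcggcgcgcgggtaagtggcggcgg

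The 2 windows differ in composition. The Gsdmc3 window holds TATAA once, beginning 27 bases before the gene start, and 2 CG dinucleotides at 48.3% G and C. The Gsdme window holds no TATAA, 24 CG dinucleotides and 65.7% G and C. Over all 32851 promoter windows of the table, 24.9% hold TATAA on either strand, and the median number of CG dinucleotides was 7. The STAT motif TTCNNNGAA and the STAT6 motif, the same letters with a spacer 1 base longer, were searched on both strands. Neither occurs in either window, against 8.30% and 6.95% of all windows, which says only that these letters are not in these stretches.

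Both arrays carried a strong epithelial signal and had nearly the same distribution of values. The submitters' processing equalises the distributions of arrays, so this likeness says nothing about how alike the samples were. The median intensity was 78.7 in the IL-9Tg pool and 78.3 in the WT pool. The enterocyte markers Fabp1 (21387 in the IL-9Tg pool and 19741 in the WT pool) and Apoa1 (24147 in the IL-9Tg pool and 25799 in the WT pool) were bright on both arrays. Il9 itself read 62.2 in the IL-9Tg pool and 71.6 in the WT pool, a log2 difference of -0.20, so the direction of every difference rests on the labels. The 3′ to 5′ ratio of the actin probe sets, a sign of RNA integrity, was 1.33 in the IL-9Tg pool and 1.61 in the WT pool, and its part in the differences below was not tested.

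In the C cluster, 4 of 8 probe sets were at least 2-fold higher in the IL-9Tg pool and 0 were 2-fold lower, whereas 0 of the 5 probe sets of Gsdma, Gsdmd and Gsdme passed 2-fold in either direction. Among all 45101 probe sets, 0.277% were higher by 2-fold and 0.111% were lower. At 3-fold the count in the C cluster was 4 as well, against 0.113% of all probe sets. The members were chosen with this contrast in view, so nothing is read from their share. Differences are given on the scale of log2(intensity + 1), IL-9Tg pool minus WT pool, and folds are on the same scale, which understates the change of dim probe sets. The median log2 difference was 1.19 over the 8 probe sets of the C cluster, -0.06 over the other 5, and 0.0072 over all probe sets. In bulk tissue, more cells of a type and more RNA per cell cannot be told apart.

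**Figure D1:**
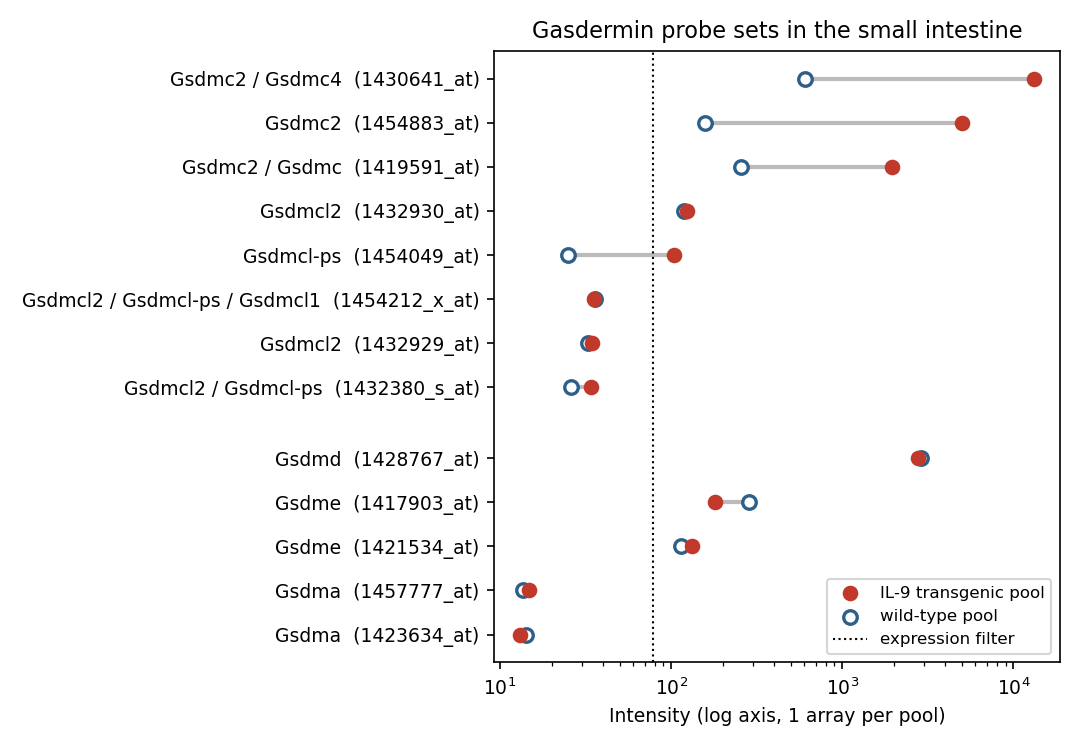
Intensity of each of the 13 gasdermin probe sets (log axis) in the IL-9Tg pool (filled) and the WT pool (open), 1 array each, with the C cluster above and the other gasdermins below; the dotted line is the expression filter at an intensity of 78.5. The 3 probe sets that name Gsdmc2 and the one of Gsdmcl-ps are spread wide apart, and the points of the other 9 lie closer together.

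Gsdmc2 was named by 3 probe sets, all higher in the IL-9Tg pool. The probe set that carries its symbol alone (1454883_at) read 4989 in the IL-9Tg pool and 158 in the WT pool, a log2 difference of 4.97 or 31.4-fold. This was the highest log2 difference of all 45101 probe sets. The probe set shared by Gsdmc2 and Gsdmc4 (1430641_at) read 13202 in the IL-9Tg pool and 604 in the WT pool, a log2 difference of 4.45 or 21.8-fold, and ranked 3 among all probe sets. The probe set shared by Gsdmc2 and Gsdmc, the first gene of the cluster (1419591_at), read 1949 in the IL-9Tg pool and 256 in the WT pool, a log2 difference of 2.92 or 7.59-fold, and ranked 8.

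These 3 probe sets did not give one size of change. Their log2 differences spanned 2.05. The median span over 4965 genes with several probe sets of 1 symbol past the expression filter was 0.29, and 0% of those genes spanned as much. The spans are not of one kind, since only 1 of the 3 probe sets carries the symbol Gsdmc2 alone and the others also name Gsdmc or Gsdmc4. The expression filter was an intensity of 78.5, the median of all values, in at least 1 pool. In the WT pool all 3 probe sets read above that filter, at 158, 604 and 256. The transcripts of Gsdmc, Gsdmc2 and Gsdmc4 cannot be told apart in the shared probe sets. A separate level of Gsdmc or Gsdmc4 is therefore not given, and no value is given for Gsdmc3. Signal from close paralogs in the probe set of Gsdmc2 alone was not tested either.

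The 3 pseudogenes between and beside the Gsdmc genes had mostly similar values in both pools, with 1 exception. In the RefSeq gene table the cluster runs Gsdmc, Gsdmc2, Gsdmcl1, Gsdmc3, Gsdmcl2, Gsdmc4, Gsdmcl-ps, so that a transcribed pseudogene follows each of Gsdmc2, Gsdmc3 and Gsdmc4. The probe set of Gsdmcl-ps alone (1454049_at) read 104 in the IL-9Tg pool and 25.1 in the WT pool, a log2 difference of 2.01 or 4.03-fold, and ranked 30. It passed the expression filter through the IL-9Tg pool alone.

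For Gsdmcl2, the probe sets of its own symbol read 124 and 34.5 in the IL-9Tg pool, against 119 and 32.8 in the WT pool, log2 differences of 0.05 and 0.07. The probe set shared by Gsdmcl2 and Gsdmcl-ps (1432380_s_at) read 33.9 in the IL-9Tg pool and 26.1 in the WT pool, a log2 difference of 0.37. The one shared by Gsdmcl2, Gsdmcl-ps and Gsdmcl1 (1454212_x_at) read 35.7 in the IL-9Tg pool and 36.1 in the WT pool, a log2 difference of -0.02. Both shared probe sets name Gsdmcl-ps, lay below the expression filter in both pools and did not show the difference of the probe set of Gsdmcl-ps alone. Gsdmcl1, which is no member by its own symbol, read 56.8 in the IL-9Tg pool and 60.7 in the WT pool, also below the filter. Of the 8 probe sets of the C cluster, 5 passed the filter.

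**Figure D2:**
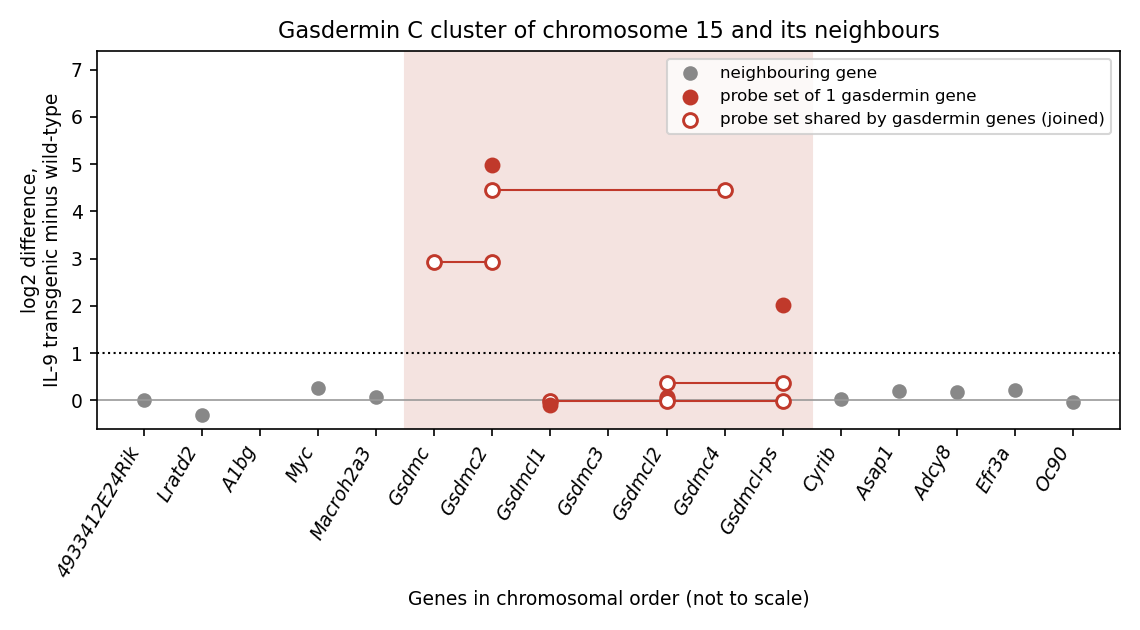
Log2 difference (IL-9Tg minus WT) of each probe set of the gasdermin C cluster and of the 5 protein-coding genes or transcribed pseudogenes on either side. The order is that of the RefSeq gene table, not to scale. Open joined points are 1 probe set shared by several genes. Gsdmc, Gsdmc3, Gsdmc4 and A1bg have no probe set of their symbol alone, and none names Gsdmc3. Gsdmc2 at 4.97 and Gsdmcl-ps at 2.01 stand above the dotted 2-fold line, as do the shared sets at 4.45 and 2.92, and the 9 measured neighbours lie between -0.32 and 0.26.

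The measured genes on either side of the C cluster differed by less than 2-fold, as did nearly all genes on the arrays. Of the 10 nearest protein-coding genes or transcribed pseudogenes, 9 were measured and 5 passed the filter. Among all 11862 genes past the filter, 0.607% were higher by 2-fold and 0.202% were lower. A count of 0 among so few neighbours is near that share, so nothing is read from it. Myc, the growth-promoting transcription factor before the cluster, read 227 in the IL-9Tg pool and 190 in the WT pool, a log2 difference of 0.26. Cyrib, a regulator of the actin cytoskeleton that follows Gsdmcl-ps directly, read 1189 in the IL-9Tg pool and 1159 in the WT pool, a log2 difference of 0.04. Asap1 and Efr3a, which follow further on, differed by 0.19 and 0.22, and Lratd2, before Myc, by -0.32. These values compare with an SD of 0.23 among probe sets that measure one gene on these arrays (log2 difference), a technical scale that leaves out the spread between mice.

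Gsdmd lies on chromosome 15 as well, with 70 protein-coding genes between it and the C cluster. Its probe set (1428767_at) was bright on both arrays and read 2779.6 in the IL-9Tg pool and 2894 in the WT pool, a log2 difference of -0.06. Gsdmd is the gasdermin through which interleukin 1β and interleukin 18 leave cells after inflammasome activation. Its neighbours Zc3h3 and Naprt, an enzyme of NAD synthesis, differed by -0.29 and 0.10.

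Gsdme, on chromosome 6, was named by 2 probe sets that pointed in opposite directions. The first (1417903_at) read 181 in the IL-9Tg pool and 285 in the WT pool, a log2 difference of -0.66 or 1.58-fold lower. The second (1421534_at) read 132 in the IL-9Tg pool and 114 in the WT pool, a log2 difference of 0.22. The span of 0.87 between them was reached by 2.78% of the 4965 genes with several probe sets, so no direction is given for Gsdme.

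Gsdma, on chromosome 11, was at the low end of the intensities in both pools. Its probe sets read 13.1 and 14.8 in the IL-9Tg pool, against 14.1 and 13.6 in the WT pool, log2 differences of -0.10 and 0.11. Its neighbour Gsdma2, which is no member, had 5 probe sets between 11.3 and 52.6 in the IL-9Tg pool and between 14.2 and 46.2 in the WT pool, all below the filter. The files carry no detection calls, so neither gene is called absent.

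**Figure D3:**
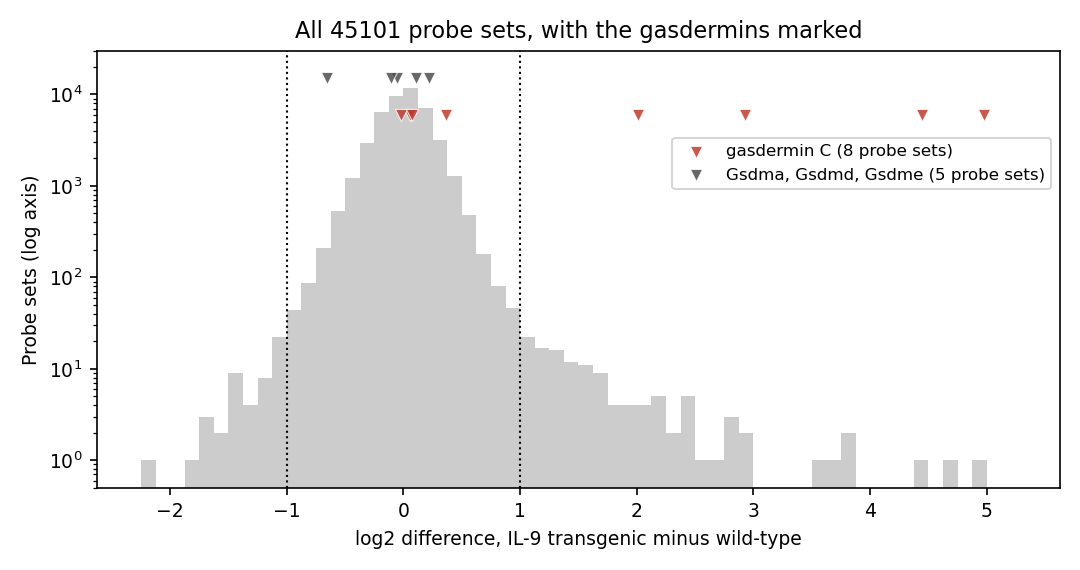
Histogram of the log2 difference (IL-9Tg minus WT) over all 45101 probe sets with a log count axis; red triangles mark the 8 probe sets of the gasdermin C cluster, grey triangles the 5 of Gsdma, Gsdmd and Gsdme, and dotted lines 2-fold. Of the red triangles 4 lie far to the right of the 2-fold line, and the other 4 and all grey ones lie within both lines.

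Genes past the filter and outside the gasdermins, each taken by 1 probe set of 1 symbol, were ranked by their distance to the 4.97 of Gsdmc2. Probe sets of several symbols or none were left out. The 5 closest over these 2 arrays all lay at least 1.14 below it. They were St3gal4, a sialyltransferase (distance 1.14), Pla2g4c, a cytosolic phospholipase A2 (1.16), Retnlb, a goblet cell peptide (1.33), and the mast cell proteases Mcpt2 (2.09) and Mcpt1 (2.20). St3gal4 read 911 in the IL-9Tg pool and 62.9 in the WT pool, and Retnlb read 567 in the IL-9Tg pool and 44.6 in the WT pool, so both passed the filter through the IL-9Tg pool alone. Where a gene has several probe sets, the one with the highest mean over both arrays stands for it. The other probe set of Pla2g4c had a log2 difference of 4.74, closer to Gsdmc2, so the gap of 1.14 depends on the probe set chosen. Of these 5 genes, 3 were in the promoter table, and none of their windows held TTCNNNGAA or the STAT6 motif. TATAA began 28 bases before the start of Mcpt1 and 30 bases before one of the 2 listed starts of Pla2g4c.

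Proteases that cut gasdermins were set beside all genes. Among all 11862 genes past the filter, 0.607% were higher by 2-fold and 0.202% were lower, with a median log2 difference of 0.0083. Of 8 proteases past the filter, 0 passed 2-fold and the median was 0.08. For a list of this size a count of 0 is near the share of all genes. Nothing is therefore read from it, here or in the lists below with a count of 0. Casp1, which cuts gasdermin D, read 1763 in the IL-9Tg pool and 1524 in the WT pool, a difference of 0.21. Casp4, the mouse sensor of cytosolic lipopolysaccharide that cuts the same protein, read 308 in the IL-9Tg pool and 366 in the WT pool, a difference of -0.25. Casp8, for which gasdermin C is a known substrate, read 1271 in the IL-9Tg pool and 1276 in the WT pool, a difference of -0.0061. The granzymes Gzma and Gzmb of cytotoxic lymphocytes differed by -0.02 and 0.04. The largest value was 0.54 in Casp6, whose other probe set lay at -0.33.

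Of 9 inflammasome sensors and adaptors past the filter, 0 passed 2-fold, again near the share of all genes, and the median was -0.05. Pycard, the adaptor ASC, read 2499.6 in the IL-9Tg pool and 1978 in the WT pool, a difference of 0.34, but its lowest probe set lay at -0.20. Nlrp6, a sensor of the intestinal epithelium, read 976 in the IL-9Tg pool and 1222 in the WT pool, a difference of -0.32. Nlrp3, the sensor of membrane damage, read 92.3 in the IL-9Tg pool and 96.9 in the WT pool. Aim2, the sensor of cytosolic DNA, lay below the filter at 23.3 in the IL-9Tg pool and 21.0 in the WT pool.

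Among proteins released through pores or at lysis and proteins of membrane rupture, 0 of 6 genes past the filter passed 2-fold. All 6 lay above 0 with a median of 0.36, while 51.4% of all genes past the filter lay above 0. Over all 10 measured genes of the list, without the filter, 9 lay above 0 and the median was 0.17. Il33, an alarmin of epithelium and stroma, read 1026 in the IL-9Tg pool and 679.7 in the WT pool, a difference of 0.59. Lgals3, the lectin galectin 3, read 10547 in the IL-9Tg pool and 7727 in the WT pool, a difference of 0.45. Il18, a cytokine that the intestinal epithelium makes, read 2118 in the IL-9Tg pool and 1586 in the WT pool, a difference of 0.42. Ninj1, which ruptures the membrane of lysing cells, differed by 0.31 with its 4 probe sets between 0.05 and 0.41. Il1b differed by 0.05.

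The machinery of membrane repair and of other lytic death lay near the median of all genes. Of 11 members of the ESCRT-III list, which removes pores from the membrane, 0 passed 2-fold and the median was -0.07. The probe sets that stand for these genes lay between -0.20 in Chmp4b and 0.22 in Chmp6. Their other probe sets reached -0.53 in Chmp2b and 0.44 in Pdcd6ip. Of 7 genes of necroptosis and death receptor signalling, 0 passed 2-fold and the median was 0.03. The largest were Ripk3, the kinase of necroptosis (446 in the IL-9Tg pool and 315 in the WT pool, a difference of 0.50), and its substrate Mlkl (205 in the IL-9Tg pool and 165 in the WT pool, 0.32).

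**Figure D4:**
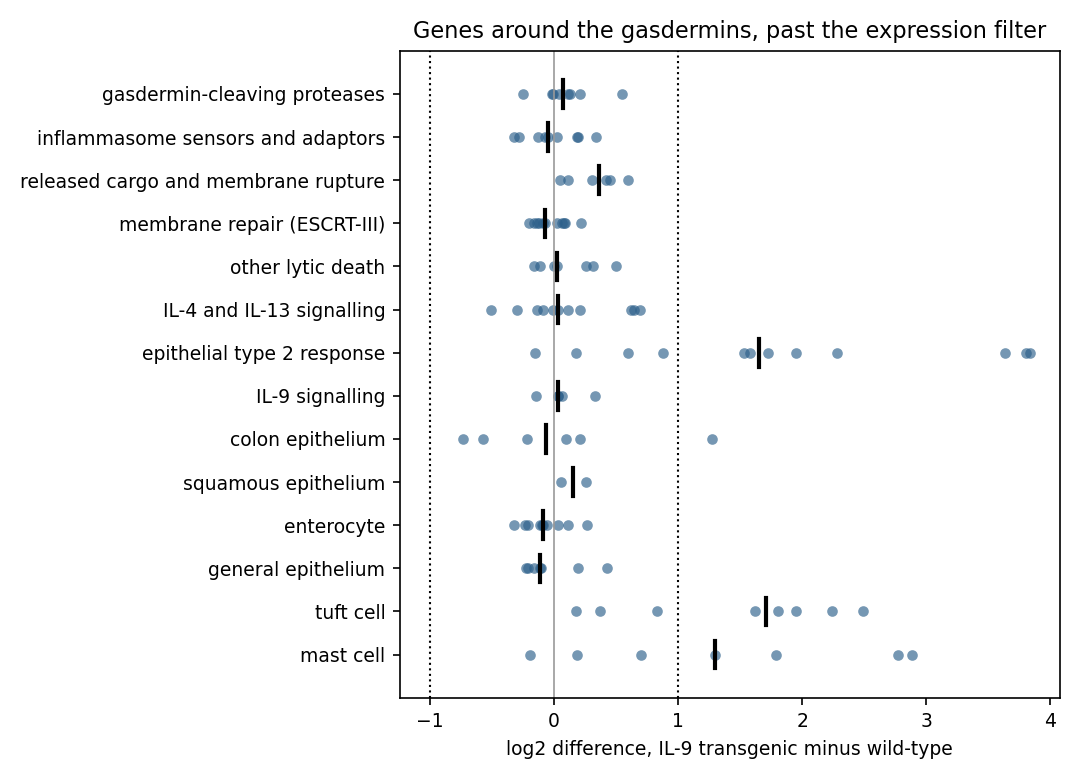
Log2 difference (IL-9Tg minus WT) of each gene past the expression filter in 14 gene lists, with the list median as a black bar and dotted lines at 2-fold. The lists of proteases, inflammasomes, released proteins, membrane repair and lytic death lie within 2-fold, and the epithelial type 2, tuft cell and mast cell lists reach past it on the right; in these 3 lists some genes passed the filter through the IL-9Tg pool alone, so their plotted medians run above those without a filter (1.58, 1.62 and 0.70).

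In the list of interleukins 4 and 13 with their receptor pathway, 0 of 11 genes past the filter passed 2-fold and the median was 0.03. The cytokine gene Il13 read 88.1 in the IL-9Tg pool and 81.2 in the WT pool, a difference of 0.12. Il4 lay below the filter, at 26.2 in the IL-9Tg pool and 27.4 in the WT pool. The receptor chain Il4ra read 226 in the IL-9Tg pool and 227 in the WT pool. The transcription factor Stat6 read 1131 in the IL-9Tg pool and 1245 in the WT pool, a difference of -0.14, but its other probe set lay at 0.24. The feedback inhibitors Socs1 and Cish, with 1 probe set each, differed by 0.69 and 0.62. Socs2 differed by 0.64, but its 6 probe sets ran down to 0.01 with a mean of 0.30. Socs3 differed by -0.51, and its 3 probe sets lay between -0.51 and -0.19. Socs1 passed the filter through the IL-9Tg pool alone, at 120 in the IL-9Tg pool and 73.8 in the WT pool. In the list around the interleukin 9 receptor 0 of 5 genes passed 2-fold, and Il9r lay below the filter at 20.5 in the IL-9Tg pool and 22.9 in the WT pool.

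In the epithelial type 2 list, 8 of all 13 measured genes were higher by 2-fold in the IL-9Tg pool and 0 were lower, with a median of 1.58 without a filter. Among all 18194 genes without a filter, 0.412% were higher by 2-fold and 0.132% were lower. The list was made with earlier results of these arrays known. Of the 8 genes, Retnlb, St3gal4 and Dclk1 lay below the filter in the WT pool and passed it through the IL-9Tg pool alone. Dclk1, a protein kinase that marks tuft cells, differed by 1.95 in the probe set that stands for it, but its 9 probe sets ran down to 0.24 and their mean was 0.81, under 2-fold. The others include the pancreatic-type lipase Pnliprp2 (2.28), the antimicrobial ribonuclease Ang4 (1.73), the lectin Reg4 (1.58) and the mucosal pentraxin Mptx1 (1.53). For Clca1, which goblet cells secrete, the difference was 0.87 in the probe set that stands for it and 1.17 in the other. Their mean was 1.02, past 2-fold. For the mucus protein Fcgbp the difference was -0.15.

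Markers of other cell types differed as follows, and their part in the values of the C cluster was not tested. These lists too were made with earlier results of these arrays known. Among all genes without a filter, 0.412% were higher by 2-fold. In the tuft cell list 5 of 9 measured genes were higher by 2-fold, and the 9 summed to 2108 in the IL-9Tg pool and 719 in the WT pool. Of these 5, Dclk1, Avil, Rgs13 and Sh2d6 lay below the filter in the WT pool and passed it through the IL-9Tg pool alone, and Dclk1 was under 2-fold as the mean of its probe sets. In the mast cell list 4 of 10 measured genes were higher by 2-fold, with a median of 0.70 without a filter, and the sum was 5808 in the IL-9Tg pool and 1231 in the WT pool. Mcpt1 and Mcpt2 made up 4950 of this sum in the IL-9Tg pool and 697 in the WT pool, and the other 8 genes summed to 858 in the IL-9Tg pool and 534 in the WT pool. The other 2 genes past 2-fold, Cpa3 and Fcer1a, passed the filter through the IL-9Tg pool alone. In the enterocyte list, to which absorptive cells contribute, 0 of 10 passed 2-fold and the sums were 146657 in the IL-9Tg pool and 153118 in the WT pool. In the general epithelial list 0 of 7 passed, with sums of 55147 in the IL-9Tg pool and 58714 in the WT pool.

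Colon and squamous markers were followed because the C genes are also known from the colon and Gsdma from squamous epithelium. In the colon list 1 of 6 genes past the filter was higher by 2-fold, against 0.607% of all genes past the filter. The sum over 11 genes was 20109 in the IL-9Tg pool and 16982 in the WT pool. Muc2 made up 11343 of this sum in the IL-9Tg pool and 10628 in the WT pool. The colon gene past 2-fold was Car4, a carbonic anhydrase, which made up 5269 in the IL-9Tg pool and 2177 in the WT pool. Its difference was 1.27, or 0.97 in its other probe set. The water channel Aqp8 differed by -0.73 and Mettl7b by -0.57. Slc26a3, a chloride exchanger, differed by -0.21 in the probe set that stands for it. Its 4 probe sets ran up to 0.55 with a mean of 0.12, so no direction is given for Slc26a3. Car1 and the posterior homeobox genes Hoxb13 and Hoxd13 lay below the filter in both pools, at 28.2, 51.7 and 52.8 in the IL-9Tg pool and 27.0, 44.8 and 51.5 in the WT pool. In the squamous list 2 of 9 measured genes passed the filter and 0 passed 2-fold, with sums of 659.7 in the IL-9Tg pool and 635 in the WT pool.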

How the data were processed

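The authors deposited intensities on a linear scale for 45101 probe sets, 1 column for each array. Per the submitters' processing notes they used RMA (no version given), which corrects background, equalises the distributions of arrays and summarises probes. Their chip annotation and genome build were not given in the sources used here. Samples were grouped by their source label.

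Gene symbols came from a platform annotation table, in which 34958 probe sets carry 1 symbol, 932 several and 9211 none. Differences were computed as log2(intensity + 1), IL-9Tg minus WT, with Python 3.11.15, numpy 2.4.6 and pandas 2.3.3. Genes of a list were taken by the probe set of 1 symbol with the highest mean, and passed the filter when the higher value reached the median of all values. Without replicates no test was run. The computation was tested on simulated data. The members and the 16 gene lists were chosen with earlier results of these data known. All members, list genes, the nearest neighbouring genes and the 5 genes most like Gsdmc2 could be named. The second probe set of Pla2g4c and the TATAA, CG and base composition counts were added after values or sequences were seen. Neighbours and gene order came from the RefSeq gene table (GRCm38.p6), whose coordinates are given for the 2 promoter sequences only. Alternatives covered the pseudocount, normalization, probe sets used, filter, fold and summary per gene.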

Additional observations from a re-analysis of the deposited data

How the results depend on the processing

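The log2 difference of Gsdmc2 lay between 4.85 and 4.98 under all alternatives run, and that of Gsdmcl-ps was 1.55 with a pseudocount of 16. The count of gasdermin probe sets higher by 2-fold was 4, also at 3-fold and under both other normalizations. RMA had already equalised the distributions of the arrays, so those normalizations could move the values only little. The count was 2 with only probe sets of 1 symbol, since those shared with Gsdmc and Gsdmc4 are then left out. It was 3 when the filter was set at the 75th percentile. The median over the C cluster, 1.19, was 0.90 with a pseudocount of 16 and 2.47 without probe sets whose suffix marks possible matches to several transcripts, where 6 remain. Of 77 values of single members under the alternatives, 76 moved by less than the SD between probe sets of one gene. Alternatives that only leave probe sets out cannot change a member that is kept, and these values are counted too. The values under the other normalizations, which could move only little, are also counted. A change of sign could be counted only for members past 2-fold, and 0 of those changed. Restricting to probe sets of 1 symbol cannot change the list medians, which use only such probe sets. Of 125 list medians, 120 moved by less than that SD. The other 5 were of the tuft cell list (1.24 and 2.09, main 1.71) and the mast cell list (0.70 to 2.83, main 1.30). In the lists outside the gasdermins 17 genes were higher by 2-fold, and 13 to 17 under the alternatives. All probe sets lower by 2-fold numbered 50, against 33 with a pseudocount of 16 and 32 without those suffixes. At 3-fold, 51 probe sets were higher and 5 lower, against 125 and 50 at 2-fold, and 31 genes were higher and 3 lower, against 72 and 24. Genes lower by 2-fold numbered 15 under the stricter filter. No paired analysis was possible because each group has 1 array. For the same reason no replicate could be left out. The number of arrays limits the precision, and probe sets near the lowest intensities, such as those of Gsdma, hold little signal over background.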
